A study of Mus musculus with 10 samples.

Results

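The ID genes Id1, Id2, Id3 and Id4 and the bHLH gene Atoh8 were followed through 10 populations of mouse embryonic fibroblasts, 5 genes of the 26401 in the count table. They were chosen by name, with their higher counts in the populations with much mutant mitochondrial DNA already known, so the values of that contrast describe them and no test is given for them. Of the 5, 4 passed the expression filter by which 12964 genes were tested, and Id4 did not. The populations are immortalized C57Bl/6N embryonic fibroblasts, a cultured connective tissue cell, and all of them carry the mitochondrial DNA genotype m.5024C>T beside normal genomes, a state called heteroplasmy. The mutant share was high in 5 populations and low in 5, and each is labelled as a biological replicate with its own clone number. The populations are called high 1 to high 5 and low 1 to low 5 here. Both groups grew untreated in the same high-glucose medium with serum and uridine. Cells without the mutation were not analysed here, so high is set against low and not against normal cells. Polyadenylated RNA of each population was sequenced once, with 17318372 to 28208576 counts per library.

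ID proteins carry the helix-loop-helix stretch by which bHLH transcription factors pair, but lack the basic stretch that binds DNA. They pair with the E proteins Tcf3, Tcf4 and Tcf12, which tissue-specific bHLH factors need as partners, and the pairs they form cannot bind the E-box in DNA. ID genes are early targets of bone morphogenetic protein (BMP) signalling through SMAD factors, and in fibroblasts they are known for holding back differentiation and senescence. Atoh8 encodes an atonal-type bHLH factor that, unlike the ID proteins, has a basic stretch.

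RefSeq promoters were matched for 4 of the 5 genes, all but Id1 (GRCm38.p6). The windows run from 250 bases before to 50 bases after the start of transcription in RefSeq. They are shown because the genes were high in the same populations. The gene spans given below are those of GENCODE M21, whose starts can differ from these. The Id2 and Id3 windows lie inside those spans, and the Id4 window ends before its span begins. Capitals mark GGCGCC, a GC element through which BMP-activated SMADs act on the mouse Id1 gene, and the E-box CANNTG. Sequences run 5′ to 3′ on the strand of the gene.
Id2 promoter, chr12:25096043-25096342, minus strand: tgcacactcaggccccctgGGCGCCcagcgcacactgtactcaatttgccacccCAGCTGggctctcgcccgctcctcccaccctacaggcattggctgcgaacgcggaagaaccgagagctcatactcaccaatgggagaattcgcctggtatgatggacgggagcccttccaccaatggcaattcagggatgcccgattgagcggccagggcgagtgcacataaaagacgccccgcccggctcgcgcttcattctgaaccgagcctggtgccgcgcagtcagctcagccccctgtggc
Id3 promoter, chr4:136143572-136143871, plus strand: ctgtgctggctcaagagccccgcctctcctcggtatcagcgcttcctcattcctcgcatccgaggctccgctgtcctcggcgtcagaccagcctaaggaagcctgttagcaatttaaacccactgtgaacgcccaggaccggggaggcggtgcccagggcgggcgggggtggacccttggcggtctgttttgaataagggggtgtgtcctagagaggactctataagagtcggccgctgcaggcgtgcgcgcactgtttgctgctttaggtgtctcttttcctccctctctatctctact
Id4 promoter, chr13:48260866-48261165, plus strand: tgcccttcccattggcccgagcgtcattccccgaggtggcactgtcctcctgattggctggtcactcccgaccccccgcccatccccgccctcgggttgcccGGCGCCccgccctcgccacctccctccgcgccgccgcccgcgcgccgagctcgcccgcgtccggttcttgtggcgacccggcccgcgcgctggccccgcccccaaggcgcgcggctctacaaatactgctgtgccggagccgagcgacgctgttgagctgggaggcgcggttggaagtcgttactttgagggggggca
Atoh8 promoter, chr6:72235528-72235827, minus strand: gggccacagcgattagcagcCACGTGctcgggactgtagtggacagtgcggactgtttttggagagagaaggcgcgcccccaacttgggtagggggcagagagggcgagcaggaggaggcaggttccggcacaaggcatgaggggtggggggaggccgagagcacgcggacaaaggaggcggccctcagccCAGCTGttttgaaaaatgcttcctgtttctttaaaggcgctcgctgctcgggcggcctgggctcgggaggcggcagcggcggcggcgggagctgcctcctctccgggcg
Both strands were searched. GGCGCC lay at bases 20 to 25 of the Id2 window and 103 to 108 of the Id4 window, and 11.9% of the 32851 RefSeq promoters of this length hold it. E-boxes lay in the Atoh8 window (CACGTG at bases 21 to 26, CAGCTG at 192 to 197) and the Id2 window (CAGCTG at 55 to 60), and 72.3% of all promoters hold a CANNTG. The form CAGCTG, itself a CANNTG, is held by 16.3% of all promoters, and CACCTG, another CANNTG, by 20.2% of them and by 0 of the 4. The SMAD box CAGAC lay in the Id3 window alone (49.6% of all promoters), the EGR element GCGTGGG in 0 of the 4 (5.04%), CCAAT in Id2 and Id4 (37.4%) and the GC box GGGCGG in all 4 (35.7%). GC content was 63.3% for Id2, 60.0% for Id3, 73.3% for Id4 and 66.7% for Atoh8, against a median of 52.7% over all promoters. The letters in these windows say nothing of what binds there.

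All 5 genes had more RNA on average in the high populations. Every high library lay above every low library for 4 of them, Id1, Id2, Id3 and Atoh8, and the genes were chosen on this contrast. That pattern held for 3.00% of all tested genes, its opposite for 4.17% and either for 7.17%. The ratio of the group means was smallest for Id3 and Id1 and much larger for Id2, Atoh8 and Id4. Levels are given as CPM, counts scaled to the TMM-adjusted library size, and spreads are SDs over n = 5 populations per group. In bulk RNA, more cells that express a gene and more RNA per cell cannot be told apart.

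**Figure D1:**
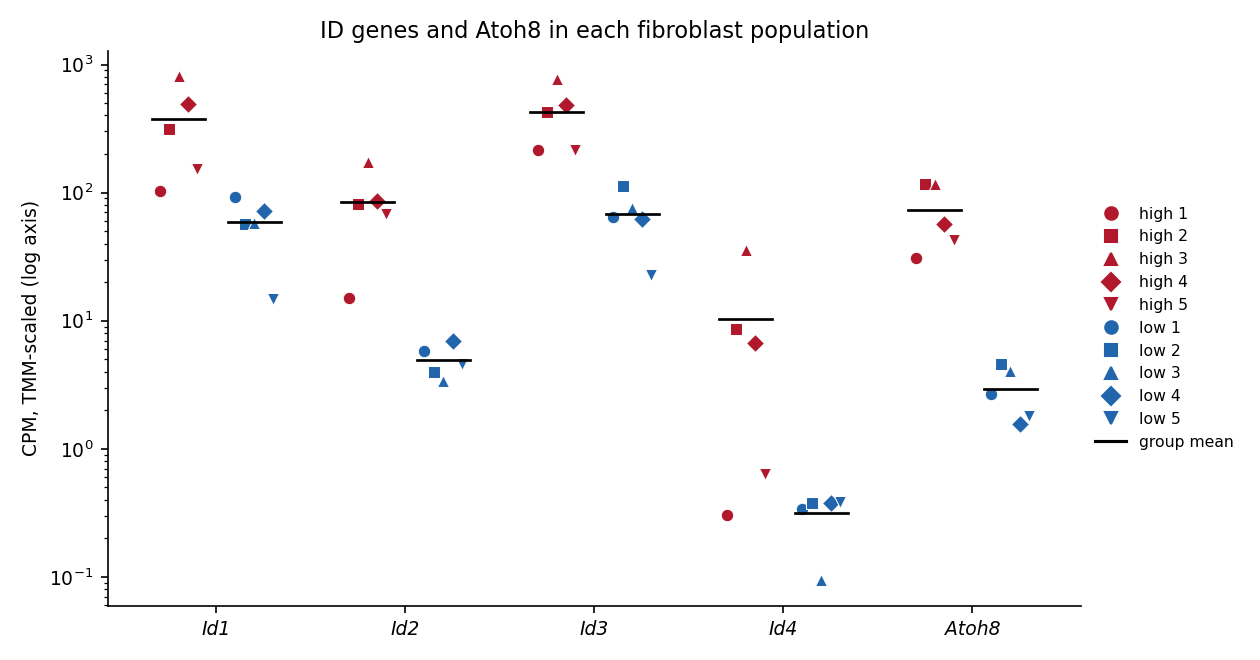
CPM of each gene (log axis) in the 5 high (red, left) and 5 low (blue, right) libraries, with one marker shape per library number and a black bar at the group mean. Red points lie above all blue points for Id1, Id2, Id3 and Atoh8, whereas high 1 lies among the low libraries for Id4.

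Id1 (ENSMUSG00000042745, chromosome 2, 152736251 to 152737410 in GRCm38, plus strand) encodes the founding member of the family. It was at 103.3, 314.8, 813.9, 490.6 and 152.6 CPM in high 1 to high 5, against 92.6, 56.9, 58.0, 72.5 and 14.8 CPM in low 1 to low 5. The groups did not overlap but nearly met, since high 1 was only 1.12 times low 1. It averaged 375.0 ± 288.5 CPM in the high and 58.96 ± 28.6 CPM in the low libraries, a ratio of 6.36 and a log2 fold change of 2.67. The spread within a group was itself wide, with 7.88 times between the highest and lowest high library and 6.26 times between the highest and lowest low library.

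Id3 (ENSMUSG00000007872, chromosome 4, 136143497 to 136145755, plus strand), which is often expressed together with Id1, had 213.8, 427.8, 771.4, 485.1 and 214.3 CPM in high 1 to high 5. It had 64.9, 111.8, 76.4, 62.3 and 22.7 CPM in low 1 to low 5. Here the groups were apart by a factor of 1.91 between the lowest high and the highest low library. Means were 422.5 ± 230.5 CPM in the high and 67.6 ± 31.9 CPM in the low libraries, a ratio of 6.25 and a log2 fold change of 2.64. Low 5 had the least RNA of both Id1 and Id3 among the low libraries.

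Id2 (ENSMUSG00000020644, chromosome 12, 25093799 to 25097140, minus strand), whose product is also known to bind the retinoblastoma protein, had 14.9, 81.4, 173.5, 85.9 and 67.8 CPM in high 1 to high 5. The low libraries were close together, at 5.81, 3.97, 3.38, 6.95 and 4.57 CPM in low 1 to low 5. Group means of 84.7 ± 57.1 CPM in the high and 4.93 ± 1.44 CPM in the low libraries gave a ratio of 17.2 and a log2 fold change of 4.10. High 1 stood below the other high libraries, at 2.15 times the highest low library, and the high libraries spanned 11.6 times from lowest to highest.

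Id4 (ENSMUSG00000021379, chromosome 13, 48261228 to 48266026, plus strand), best known from neural and mammary progenitors, was at or near 0 in all low and in some high populations. High 1 to high 5 held 6, 201, 939, 167 and 19 counts, against 6, 7, 2, 9 and 7 counts in low 1 to low 5. In CPM these were 0.305, 8.64, 35.5, 6.64 and 0.632 in the high and 0.342, 0.380, 0.0938, 0.377 and 0.381 in the low libraries. High 2, high 3 and high 4 were thus far above the low range, high 5 slightly above it and high 1 within it. The mean was 10.3 ± 14.5 CPM in the high and 0.315 ± 0.125 CPM in the low libraries, a ratio of 32.9 that rested on high 3 and was 12.9 without it. The log2 fold change, fitted with no expression filter, was 5.04 with all libraries and 3.69 without high 3. Exons of the opposite-strand genes A330033J07Rik and Gm49291 share 82 and 171 bases with those of Id4. The first had 6 counts over the high and 1 over the low libraries, and the second was not used here. The library kit keeps strand, but whether the counting used it is not stated, so reads of these bases may be shared.

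Atoh8 (ENSMUSG00000037621, chromosome 6, 72206177 to 72235577, minus strand) showed the widest gap between the groups of the 5 genes. It was at 30.8, 116.2, 116.4, 56.8 and 43.0 CPM in high 1 to high 5, against 2.68, 4.56, 4.08, 1.55 and 1.80 CPM in low 1 to low 5. The lowest high library was 6.75 times the highest low library. Means of 72.6 ± 40.9 CPM in the high and 2.93 ± 1.35 CPM in the low libraries gave a ratio of 24.8 and a log2 fold change of 4.63. Atoh8 lies on chromosome 6, whose genes were higher as a block in the high group by a median of 0.30 on the log2 scale, and with each library's shift per chromosome taken out its log2 fold change was 4.35. For chromosomes 2, 12, 4 and 13, which hold Id1, Id2, Id3 and Id4, the same difference was 0.07, 0.00, 0.09 and 0.07. These are differences of group means, and single libraries strayed further. Chromosome 13 was at -0.30 in high 1 and 0.26 in high 5, and chromosome 2 at 0.21 in high 4. Chromosome 6 itself was at 0.45 in high 1 and -0.04 in high 4.

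The populations kept a common order across these genes. High 3 had the highest and high 1 the lowest level of all 5 genes within the high group, and for Id1, Id2 and Id3 the full order was high 3, high 4, high 2, high 5 and high 1. Id4 and Atoh8 differed only in that high 2 stood before high 4. Smad6, Smad9, Dlx2 and Bmp2, described below, were also highest in high 3 and lowest in high 1 within the high group. The share of all tested genes with these extremes was not counted, so the order may not be particular to the 5 genes. The low libraries kept no such order: the top place was held by low 1 for Id1, low 4 for Id2 and low 2 for Id3 and Atoh8. A fit that took the number in the sample code as a block, in which high 3 and high 4 carry no weight because their code number occurs in no low library, gave log2 fold changes of 1.65 for Id1, 3.39 for Id2, 2.11 for Id3 and 4.41 for Atoh8.

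Set on a common scale per kilobase of the longest coding transcript, Id1 and Id3 made up nearly all ID RNA. Id1 averaged 323.3 ± 248.7 CPM per kb in high libraries and 50.8 ± 24.6 in low libraries, and Id3 averaged 330.6 ± 180.4 in high libraries and 52.9 ± 24.997 in low libraries. These levels overlapped in both groups, Id1 being the higher in 4 of the 10 libraries. Id2 came next at 43.0 ± 29.0 CPM per kb in high libraries and 2.51 ± 0.732 in low libraries, and lay below Id1 and Id3 in all 10 libraries. Id4 came last in all 10, at 2.69 ± 3.78 CPM per kb in high libraries and 0.0818 ± 0.0324 in low libraries. Id2 held 6.20% ± 2.699 of the summed ID level in high libraries and 3.06% ± 2.32 in low libraries, shares that overlapped since low 5 was at 7.05% and high 1 at 2.87%. Id3 held 50.6% ± 7.99 in high libraries and 50.2% ± 10.0 in low libraries.

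None of the 3 E protein genes, whose products the ID proteins bind, passed the test in edgeR (1 at an unadjusted p under 0.05), DESeq2 or limma-voom. Tcf3, which encodes E12 and E47, averaged 299.2 ± 53.1 CPM in the high and 211.9 ± 40.2 CPM in low libraries (log2 fold change 0.50, SE 0.17, edgeR adjusted p = 0.124). With the shift per chromosome taken out its log2 fold change was 0.21. Tcf4 was at -0.08 (SE 0.26, adjusted p = 0.897) and Tcf12 at -0.14 (SE 0.16, adjusted p = 0.683). Their summed level was 137.7, 114.8, 161.2, 129.3 and 118.2 CPM per kb in high 1 to high 5, against 121.7, 112.3, 106.1, 96.2 and 89.0 in low 1 to low 5. The summed ID level was 264.1, 649.7, 1402.6, 847.9 and 333.8 CPM per kb in high 1 to high 5, against 133.7, 138.7, 111.5, 114.8 and 32.9 in low 1 to low 5. As a ratio, ID RNA was 1.92 to 8.70 times E protein RNA in the high libraries and 0.370 to 1.23 times in the low libraries, on this choice of transcript lengths.

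**Figure D2:**
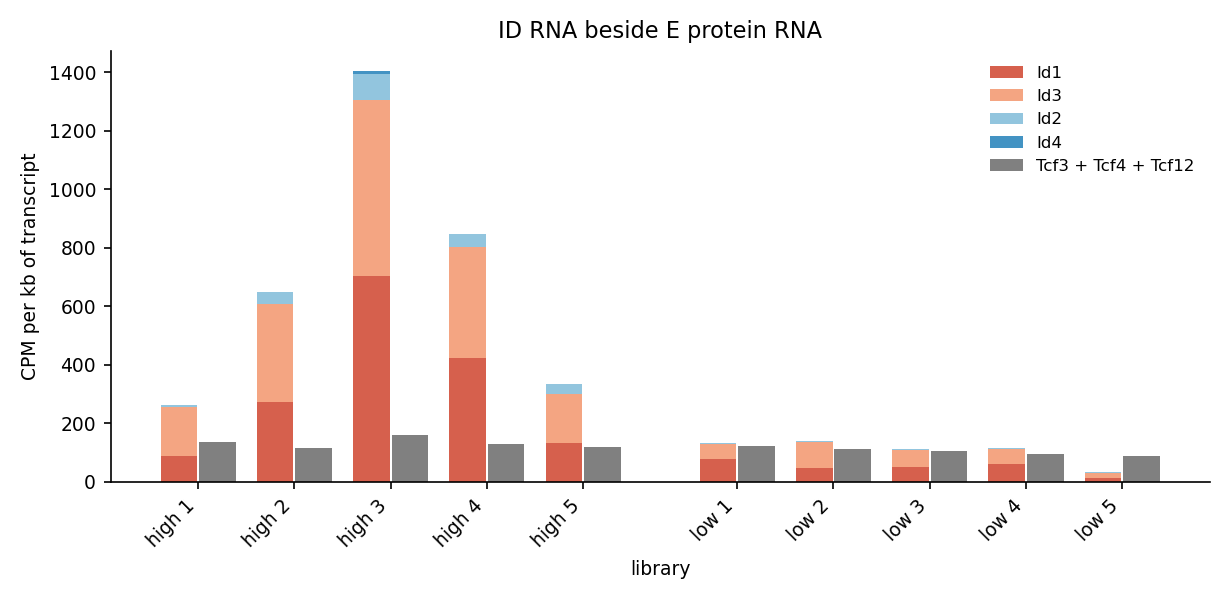
Level per kb of transcript in each library, with the 4 ID genes stacked (colours) beside the sum of the 3 E protein genes (grey). The ID stack is at 1402.6 CPM per kb in high 3 and reaches at most 138.7 in the low libraries, while the grey bars lie between 89.0 and 161.2 throughout.

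Genes around the ID proteins were read from 9 lists of bHLH partners, BMP signalling, ID turnover, ID transcription and cell cycle genes. Of 72 genes tested in them, 4 rose and 1 fell by edgeR's quasi-likelihood test at a Benjamini-Hochberg adjusted p under 0.05. Over all tested genes 4.86% were called, 1.99% as higher and 2.87% as lower. The 4 rises, 5.56% of the 72, were Smad9, Smad6, Dlx2 and Bmp2, all of the BMP pathway. The median log2 fold change of the 72 was -0.05, beside 0.02 for all tested genes. Calls depended on single libraries. Each fit with a library left out filtered the genes anew, so its calls need not be among the 72. The lists held 2 calls without high 2, high 3, low 1, low 2, low 3 or low 4, 3 without high 5, and 8 without high 4. Of the 2 without low 1 or low 4, only Smad9 was among the 5 calls with all libraries. Of the 8 without high 4, 3 were among those 5.

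Among BMP-SMAD targets other than the ID genes, 3 of 12 tested rose and 0 fell, with a median log2 fold change of 0.59 (6 at an unadjusted p under 0.05, 6 of the whole list called by DESeq2 and 3 by limma-voom in either direction, the last being Smad6, Smad9 and Nog). Smad6 encodes an inhibitory SMAD that BMP signalling switches on as a brake. It was at 20.8, 44.6, 74.3, 34.6 and 33.4 CPM in high 1 to high 5, against 9.97, 16.1, 16.9, 8.95 and 6.59 CPM in low 1 to low 5. These groups did not overlap, and Smad6 rose by 1.83 on the log2 scale (SE 0.36, edgeR adjusted p = 0.0220). The call was lost without low 1 (adjusted p = 0.0532) or low 4 (0.0536).

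Smad9, which encodes a receptor-activated SMAD of the BMP branch, had 5.64, 17.2, 52.2, 14.1 and 17.3 CPM in high 1 to high 5, against 1.54, 3.26, 1.97, 1.67 and 2.23 CPM in low 1 to low 5. It rose by 3.32 on the log2 scale (SE 0.53, edgeR adjusted p = 0.0120), with no overlap of the groups, and kept its call whichever of the 10 libraries was omitted. Neither Smad9 nor Smad6, nor any other gene of the lists, passed when low 2 and low 3, which are rich in the transcript Gm42418, were omitted together (edgeR adjusted p = 0.0669 for Smad9 and 0.0561 for Smad6), an alternative chosen after seeing the data. Dlx2, a homeobox gene of the branchial arches and forebrain, was at 0.762, 8.51, 13.2, 9.70 and 2.73 CPM in high 1 to high 5, against 1.03, 1.14, 1.31, 1.17 and 1.85 CPM in low 1 to low 5. High 1 lay below all low libraries, as it did for Id4 in all but low 3. The rise of Dlx2 (log2 fold change 2.42, SE 0.62, adjusted p = 0.0480) kept its call on omission of high 1 but of none of the other 9 libraries. It was not called by limma-voom (1.91, adjusted p = 0.183), with the code number as a block (1.35, 0.187) or with the shift per chromosome taken out (2.31, 0.0889).

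Of the BMP and GDF ligands, 1 of 4 tested rose and 0 fell (2 at an unadjusted p under 0.05, 0 called by limma-voom). DESeq2 called 4 in either direction among all 15 listed ligands in the table, tested in edgeR or not. The rise was that of Bmp2, a ligand that signals through these SMADs, at 0.406, 20.6, 107.7, 14.6 and 9.95 CPM in high 1 to high 5, against 0.798, 0.326, 0, 1.05 and 0.925 CPM in low 1 to low 5. High 2 to high 5 were far above the low range and high 1 was within it, so the groups overlapped as for Id4. The log2 fold change was 5.62 (SE 1.27, adjusted p = 0.0345), and 4.19 without high 3 (adjusted p = 0.0719). Bmp2 kept its call on omission of high 1, high 4 or high 5 but of none of the other 7 libraries, and limma-voom did not call it (adjusted p = 0.165). Nor was it called with the code number as a block (3.84, edgeR adjusted p = 0.168), with the shift per chromosome taken out (5.53, 0.0595) or with no expression filter (5.64, 0.0911).

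**Figure D3:**
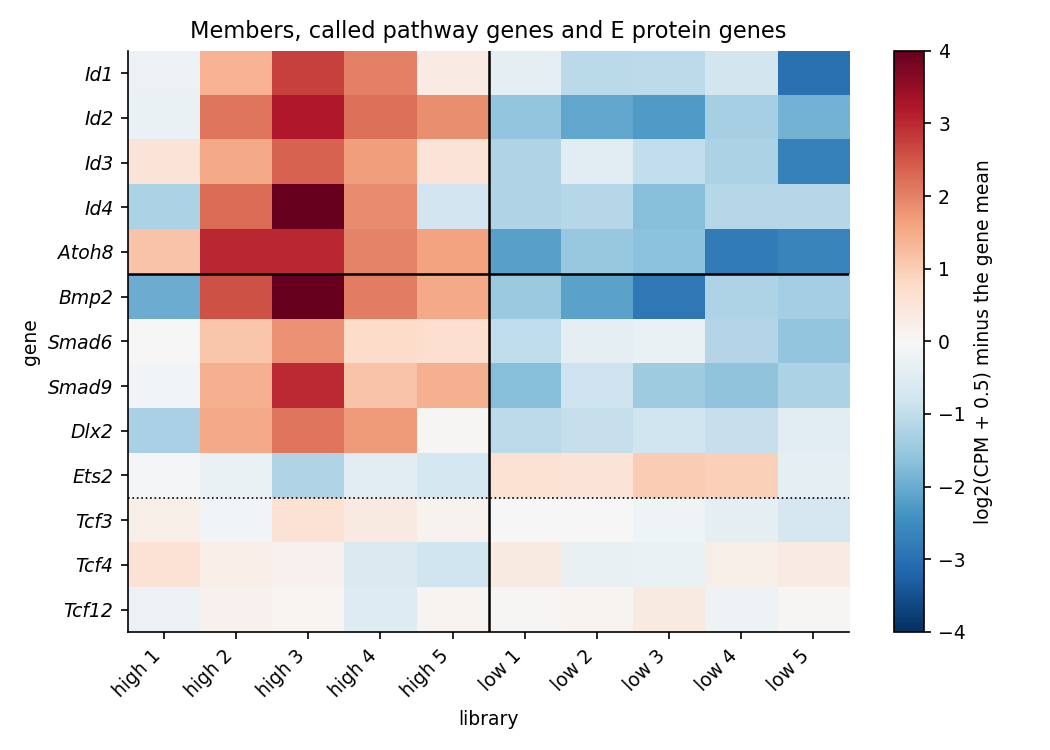
Heat map of log2(CPM + 0.5) minus the mean of each gene over the 10 libraries, with the high libraries on the left. Rows are the ID genes and Atoh8 (top), the pathway genes that passed the test (middle) and the E protein genes (bottom), and colours end at 4 in either direction. Within the high group the top rows have their highest value in high 3 and their lowest in high 1. In high 1, Id3 and Atoh8 lie above the gene mean (red), and Id1, Id2 and Id4 lie below it (blue).

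Among regulators of ID transcription, 1 of 9 tested fell and 0 rose, with a median of -0.60 (2 at an unadjusted p under 0.05, 2 of the whole list called by DESeq2 and 0 by limma-voom). The gene that fell was Ets2, a transcription factor that ID proteins are known to oppose, and whether it acts on ID transcription here was not tested. Ets2 fell to 37.0 ± 10.6 CPM in the high libraries, against 79.5 ± 26.2 CPM in the low libraries (log2 fold change -1.10, SE 0.28, edgeR adjusted p = 0.0461). The groups overlapped, as low 5 had 39.2 CPM and high 1 49.5 CPM, and the call survived omission of high 1 or low 5 but of none of the other 8 libraries. It was lost by limma-voom (-1.09, adjusted p = 0.0542), with the code number as a block (-0.98, 0.142) and with upper-quartile scaling (-1.07, 0.0532).

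In the other 6 lists 0 of 47 tested genes passed in edgeR, with 7 at an unadjusted p under 0.05. Limma-voom called 0 of them. Over all genes of these lists, tested in edgeR or not, DESeq2 called 2, Bhlhe40 and Mesp2, of which Mesp2 was below the expression filter. Smad9, itself a receptor-activated SMAD, was counted among the BMP-SMAD targets and not among the SMAD transducers of these lists. The BMP receptors and SMAD transducers had a median log2 fold change of 0.11 over 12 genes, the smallest p values being those of Smad1 (-0.36, SE 0.16, adjusted p = 0.228; 0.20 with the shift per chromosome taken out), Acvr2b (-0.83, adjusted p = 0.249) and the receptor gene Acvrl1 (2.07, adjusted p = 0.303). Genes of ID protein turnover had a median of 0.14 over 9, led by Fzr1 of the anaphase-promoting complex (0.37, adjusted p = 0.323), Dyrk1a (0.20, 0.373) and Wdr48, a cofactor of the ID deubiquitinase Usp1 (-0.15, 0.562). With the shift per chromosome taken out, Fzr1 was at 0.06, Dyrk1a at 0.00 and Wdr48 at -0.03. Of the HES, HEY and BHLHE repressors 5 of 6 tested had lower and 1 higher values, none past the threshold in edgeR with all libraries, with Bhlhe40 at -0.90 (SE 0.30, adjusted p = 0.113), Hes7 at -1.49 (0.158) and Hey2 at -0.91 (0.361). Bhlhe40 did pass, as lower, by DESeq2 (-0.89, adjusted p = 0.0495), in edgeR without high 1 (-1.28, 0.0113), where it was far above the other high libraries, and with the code number as a block (-0.93, 0.0388).

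Tissue-specific bHLH factors were mostly off. Only 4 of 27 were tested, and the others reached at most 0.762 CPM in any library. Twist2 (log2 fold change 0.39, adjusted p = 0.481), the tendon factor Scx (-0.50, 0.484) and Tcf24 (-0.37, 0.595) had the smallest p values and did not pass. The cyclin-dependent kinase inhibitors, RB family and D cyclins had a median of -0.09 over 13 genes. Their smallest p values were those of Cdkn2c, which encodes p18 (0.53, SE 0.17, adjusted p = 0.0996), Rbl2 (-0.54, 0.103; 0.03 with the shift per chromosome taken out) and Cdkn2b, which encodes p15 (-0.57, 0.143).

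**Figure D4:**
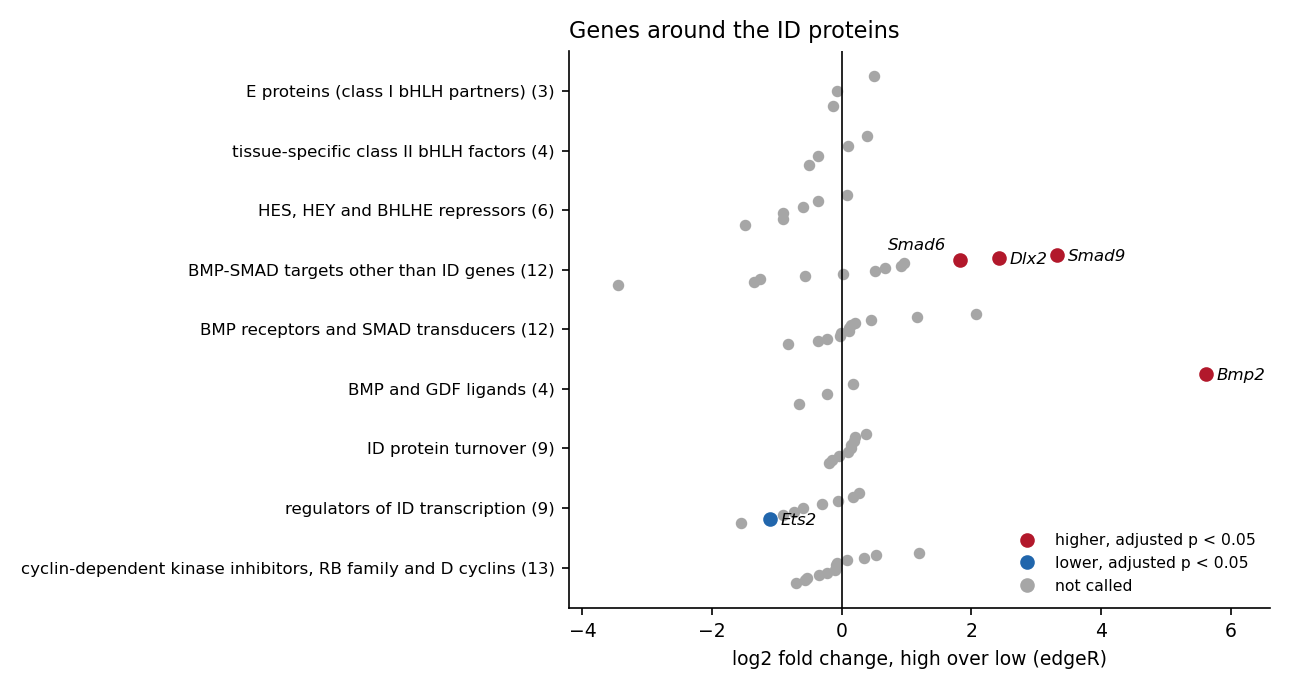
Log2 fold change (high over low) of every tested gene of the 9 lists, one point per gene with the number tested in brackets, coloured where the adjusted p is under 0.05. Coloured points are Smad9, Smad6 and Dlx2 among the BMP-SMAD targets, Bmp2 among the ligands and Ets2 among the regulators of ID transcription.

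Likeness of profile over the 10 libraries was measured by the root mean square difference of centred log2 CPM, as a description of these libraries. The members were left out as candidates, so the genes named are the closest outside the 5 and a fellow member may be closer. The 3 closest candidates were taken for each member. For Id1 these were Ptger1 (0.78), Smad6 (0.80) and Tmcc3 (0.89), beside a spread of Id1 itself of 1.61 on the same scale. For Id3 they were Smad6 (0.57), Avil (0.58) and Plxnd1 (0.68), beside 1.51. For Id2 they were Smad9 (0.68), Fam19a5 (0.84) and Plin4 (0.92), beside 2.07. Ptger1, a prostaglandin E receptor gene, was at 5.84, 19.4, 60.7, 13.0 and 4.39 CPM in high 1 to high 5, against 3.36, 4.56, 3.75, 3.97 and 2.78 CPM in low 1 to low 5, so that it too peaked in high 3, while high 5 lay below low 2. Id4 was nearest to Dlx2 (1.15), Lrrc75b (1.18) and Ptger1 (1.18), beside 2.38. Atoh8 was nearest to Deptor (0.73), Fam19a5 (0.86) and Dhrs3 (0.94), beside 2.36. Deptor, whose product inhibits mTOR, was at 52.1, 148.8, 72.3, 68.0 and 41.1 CPM in high 1 to high 5, against 7.18, 6.25, 4.93, 1.92 and 7.95 CPM in low 1 to low 5.

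Cell type markers were read beside these values, since ID genes and Atoh8 are also known from endothelium and from cells of other lineages. Of the fibroblast markers Col1a1 (5638 ± 1473 CPM high, 4781 ± 1061 CPM low) and Vim (7242 ± 3276 CPM high, 6236 ± 685 CPM low) were abundant, whereas Lum was at or near 0 in all libraries and Dcn at 0.172 ± 0.255 CPM high and 2.00 ± 1.09 CPM low. None of 11 tested fibroblast markers passed in edgeR (1 at an unadjusted p under 0.05, 2 of the whole list by DESeq2, 1 by limma-voom), and 7 had higher and 4 lower values. Some varied widely between libraries, as Col1a2 ran from 1.98 to 886.3 CPM and Pdgfra from 0.266 to 50.9 CPM. Thy1, below the expression filter, was at 14.3 ± 24.2 CPM in high and 0.138 ± 0.131 CPM in low libraries. The defining endothelial markers were at or near 0, with Cdh5 and Tie1 at 0 counts in all libraries and Pecam1 at most 0.711 CPM, and the summed level of the 9 listed genes was 1.46 to 33.7 CPM in the high and 5.23 to 15.7 CPM in the low libraries. Flt1, the one tested, averaged 12.3 ± 14.3 CPM in high and 10.0 ± 3.95 CPM in low libraries and did not pass in edgeR, DESeq2 or limma-voom. All 3 tested adipocyte markers, Plin4, Fabp4 and Pparg, rose in edgeR (4 of the list called by DESeq2, 2 by limma-voom), and the 7 listed genes summed to 90.9 to 287.0 CPM in the high and 22.0 to 37.5 CPM in the low libraries. Adipoq and Plin1 were at or near 0 (at most 0.0418 CPM and 0.0398 CPM).

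Among 4 tested epithelial markers Krt18 rose, at 118.8 ± 120.0 CPM in high and 0.477 ± 0.120 CPM in low libraries (log2 fold change 7.95, edgeR adjusted p = 0.00895). Krt19 (-1.39, edgeR adjusted p = 0.0509), Krt8 (-1.36, 0.0926) and Cdh1 (-2.72, 0.0926) had lower values that did not pass. Of the list, 4 were at an unadjusted p under 0.05, 5 were called by DESeq2 and 1 by limma-voom. The list of 11 summed to 121.6 to 511.9 CPM in the high and 453.7 to 673.2 CPM in the low libraries, and Esrp1 was at 0. Among 3 tested cartilage and bone markers Col10a1 rose, at 19.7 ± 23.0 CPM in high and 0.169 ± 0.273 CPM in low libraries (log2 fold change 6.86, edgeR adjusted p = 0.0252). Sox9 was at 3.16 ± 2.05 CPM in high and 14.1 ± 7.33 CPM in low libraries and did not pass (-2.16, edgeR adjusted p = 0.0607). Of this list, 2 were at an unadjusted p under 0.05, 2 were called by DESeq2 and 0 by limma-voom. The list of 7 summed to 2.95 to 61.7 CPM in the high and 7.40 to 22.7 CPM in the low libraries. Among 6 tested neural and glial markers Nes and Tubb3 fell, while Mbp was at 8.94 ± 5.23 CPM in high and 1.03 ± 1.28 CPM in low libraries and did not pass (3.13, edgeR adjusted p = 0.0637). Of this list, 3 were at an unadjusted p under 0.05, 4 were called by DESeq2 and 2 by limma-voom. The list, with a median log2 fold change of -0.30 over those tested, held 9 genes that summed to 144.2 to 281.5 CPM in the high and 318.2 to 399.9 CPM in the low libraries, with Sox10 at 0. Of 2 skeletal muscle markers and 1 haematopoietic marker tested none passed in edgeR or limma-voom (1 muscle marker at an unadjusted p under 0.05 and called by DESeq2), and Ptprc and Myog were at 0. The muscle list summed to 4.03 to 29.0 CPM in high and 2.16 to 13.5 CPM in low libraries, and the haematopoietic list to 11.8 to 90.2 CPM in high and 12.3 to 26.2 CPM in low libraries. The part of the adipocyte, epithelial, cartilage and neural genes in the ID and Atoh8 values was not tested.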

How the data were processed

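The authors deposited raw read counts per Ensembl gene, 1 column per library, and a second table in which, as the values show, the authors scaled each library's counts with a single size factor to give a normalized signal; only the counts were analysed. Per the submitters' processing notes, the tools were R 4.2.1, DESeq2 1.36.0 and STAR 2.7.8a on GRCm38, without further detail. How reads were counted, and whether by strand, is not stated. Symbols came from GENCODE M21, which left 195 of 26401 identifiers without a name.

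High was compared with low in edgeR 4.0.16 (R 4.3.3; default expression filter by group, TMM scaling, robust quasi-likelihood F-test, two-sided, Benjamini-Hochberg over all 12964 genes tested). DESeq2 1.42.0, limma-voom (limma 3.58.1), other scalings and filters, blocks, chromosome offsets and left-out libraries were alternatives. DESeq2 was run without the edgeR expression filter, so its calls within a list can include genes not tested in edgeR. SEs were derived from the F statistic (absolute log2 fold change over its square root). Levels per kb used the longest coding transcript. Likeness used log2 CPM (prior count 2), among tested genes averaging 1 CPM or more. Left out of it were the members, genes encoded by mitochondrial DNA and genes with only a placeholder name. Named genes were called members of the 9 pathway lists, otherwise the 3 smallest p values of a list, all E proteins and the 3 most alike genes per member; Mesp2, Nog, Egr1 and the marker genes were named after their values were seen. The members and lists were chosen with earlier results of these data known. The code was tested on simulated counts. Of 141 listed pathway genes, 120 were in the table. Plots used Python 3.11.15 and matplotlib 3.10.9.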

Additional observations from a re-analysis of the deposited data

Results flagged for a closer look

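Over 56 sets of 5 libraries (28 genes in each group) 5 held a library set apart from its group by a Dixon gap test at the 95% level. By this rule chance marks about 1 set in 20 where values follow a normal curve. The rule was applied to CPM and not to log2 CPM, so that rate need not hold for values as skewed as these. Whether the same libraries stand apart on the log2 scale was not tested. In the high group, high 3 stood above the others for Id4 (35.5 CPM, others 0.305 to 8.64), Smad9 (52.2 CPM, others 5.64 to 17.3) and Bmp2 (107.7 CPM, others 0.406 to 20.6). High 1 stood above the others for the repressor gene Bhlhe40 (108.0 CPM, others 38.4 to 47.0). In the low group, low 3 stood below the others for Id4 (0.0938 CPM, others 0.342 to 0.381), where it had 2 counts.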

How the results depend on the processing

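The log2 fold changes of Id1, Id2, Id3 and Atoh8 kept their sign in all 20 alternatives run, within 1.65 to 2.91, 3.39 to 4.37, 2.11 to 3.09 and 4.35 to 5.20. Id4, below the filter in many fits, was at 5.04 with no filter and at 3.69 to 5.37 in 12 others, of which the lowest was without high 3. Added after seeing the data were 4 of the 12 (no filter, without high 2, high 3, high 4 or high 5) and also the fit without low 2 and low 3 (4.81). The count of all genes called was 630, and 232 to 821 with 1 library left out, 1643 by DESeq2, 164 with an offset per chromosome and 1276 at a threshold of 0.1. The count over the pathway lists was 5, and 2 to 8 with 1 library left out, 14 by DESeq2, 3 each by limma-voom, with the code number as a block and with an offset per chromosome, and 10 at a threshold of 0.1. Without low 2 and low 3, left out after seeing the data for their Gm42418 counts (745 to 1154 CPM in the high libraries, against 40941 CPM in low 2 and 8017 CPM in low 3), edgeR called 56 genes, 0 of them in the pathway lists (17 at an unadjusted p under 0.05), and Smad9 (log2 fold change 3.57, adjusted p = 0.0669) and Smad6 (2.31, 0.0561) missed the threshold. The replicate number paired the libraries in part at most. The correlation of deviations was 0.455 for number 1, 0.16 for number 5 and -0.053 to 0.074 for the others. Only high 1 and high 5, 2 of 5 high libraries, correlated best with their own number. As a block the replicate number gave 577 calls, 5 in the pathway lists, of which 2 were shared with the fit without a block (Smad6 and Smad9). Bmp2, Dlx2 and Ets2 were lost (edgeR adjusted p = 0.155, 0.130 and 0.0737) and Bhlhe40 (0.0299), Egr1 and Nog were called. Smad9 and Smad6 were called by both other tools, with both blocks and with the chromosome offset.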
